A study of Homo sapiens with 6 samples.

Results

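The snoRNA host genes are a group of genes whose introns carry small nucleolar RNAs (snoRNAs), and their response to knockdown of the RNA helicase MTR4 was read from RNA-seq of PLC/PRF/5 cells. The members were chosen by name and by total count. They are the genes with a symbol made of SNHG and a number, together with GAS5, ZFAS1 and DANCR, that reached a total of at least 10 counts over the 6 libraries. Of 31 matching symbols among 60675 counted genes, 28 met this minimum. SNHG25 was the member closest to it, with 1 to 8 counts in each library. SNHG18 and SNHG28, with 4 counts each, and SNHG22, with 3, lay below it. All members but SNHG25 passed the filter on low counts, which left 27 tested members among 18075 tested genes.

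In a snoRNA host gene, the snoRNA is cut from the intron after splicing and trimmed by exonucleases, while the joined exons form a separate RNA. Box C/D snoRNAs guide the methylation of ribosomal RNA and H/ACA snoRNAs guide its pseudouridylation, whereas small Cajal body RNAs guide the same changes in spliceosomal RNA. The exonic RNAs of many hosts have no long open reading frame and are degraded by nonsense-mediated decay (NMD) when ribosomes engage them. Many hosts also begin with a run of pyrimidines, a start feature shared with ribosomal protein genes. MTR4, encoded by MTREX, hands nuclear RNAs to the RNA exosome, which trims snoRNA precursors and degrades other nuclear transcripts.

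PLC/PRF/5 is a cell line from a human hepatocellular carcinoma, and it was grown in DMEM with fetal bovine serum. There were 3 control libraries and 3 MTR4 KD libraries, made from total RNA. How this RNA was selected before sequencing is not described by the study. The study describes a line in which a doxycycline-inducible shRNA, delivered by lentivirus, targets MTR4. No library of doxycycline-treated cells with a scramble shRNA was analysed here, so an effect of doxycycline cannot be told apart from the knockdown. The labels do not say that the replicates were separate cultures, so the p-values measure the spread between these samples, which may be technical.

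Reads counted on genes numbered 60686786 to 72708682 per library. The share of reads with a non-unique alignment split the libraries into a pair of alignment groups that cut across the conditions. It was 34.7% to 37.5% in replicates 1 and 3 of the control and replicate 3 of MTR4 KD, and 14.8% to 18.2% in replicate 2 of the control and replicates 1 and 2 of MTR4 KD. The labels do not say what the alignment groups are. Each comparison was therefore fitted with condition only and again with the alignment group as a term. Markers of hepatocytes summed to between 22400 and 24300 CPM (a count relative to the TMM-scaled library total) in every library, and 10 markers of fibroblasts, leukocytes, endothelium and neurons to between 41.3 and 53.4 CPM, most of it SYP. Single hepatocyte markers differed between the conditions, with TTR (log2 fold change 0.88), APOA1 (0.52) and ALB (0.29) higher and KRT18 (-0.26) lower, and their part in the results for the members was not tested. MTREX (ENSG00000039123) was at 72.2, 87.4 and 74.4 CPM in the control libraries and at 44.6, 48.8 and 44.1 CPM in the MTR4 KD libraries. Its level fell to 0.588 of control (log2 fold change -0.77, SE 0.0897, adjusted p = 0.00641, edgeR quasi-likelihood test with Benjamini-Hochberg adjustment).

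The members lay on 14 chromosomes and differed in the snoRNAs they hold within their RefSeq bounds on GRCh38. Only box C/D snoRNAs were named in 12 members, only H/ACA snoRNAs in 10, only Cajal body RNAs in 3, both boxes in 2 and none in 1. A single snoRNA was found in 13 members, 2 to 4 in 10 members, and 5 or more in 4. SNHG14, an imprinted precursor of the Prader-Willi region, held 84, of which 83 were box C/D. GAS5 held 11, SNHG1 held 9 and SNHG17 held 5. The counts of a host are reads on its annotated exons. In a GRCh37 lift of the GENCODE annotation, exons of DANCR, SNHG10, SNHG17, SNHG19 and SNHG30, among others, also cover bases of a hosted snoRNA. The exons that were counted belong to another gene set on GRCh38. Unspliced host RNA may be part of these counts, which was not tested. How reads shared by a host exon and a snoRNA gene were counted is not given in the sources used here. The 23 snoRNA genes in members other than SNHG14 that could be matched by identifier had total counts of 0 to 184 over the 6 libraries.

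The start of the transcript is shown for the members that differed and that the RefSeq promoter table (GRCh38.p14) holds, and for GAS5, SNHG32 and ZFAS1, since a pyrimidine run at this place is the sequence feature best known for these genes. Each window runs 5′ to 3′ on the gene's strand from 10 bases before the annotated start. Capitals mark a run of at least 5 pyrimidines that begins with C and starts within 10 bases of the annotated start.
SNHG19, chr16:2155339-2155368, minus strand: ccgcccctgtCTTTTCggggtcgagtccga
SNHG4, chr5:139274091-139274120, plus strand: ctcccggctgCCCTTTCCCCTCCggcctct
DANCR, chr4:52712384-52712413, plus strand: tgcgcgccccgCCCTTgcccagagtcttcc
SNHG29, chr17:16438977-16439006, plus strand: CCTTTTgtgaggattgggatattccgactc
SNHG17, chr20:38435309-38435338, minus strand: gtgtggcctcagtCCTTCgccgtccctcgc
SNHG3, chr1:28505933-28505962, plus strand: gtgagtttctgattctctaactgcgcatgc
SNHG20, chr17:77088633-77088662, plus strand: ttccggccggaagttgctgacggagctact
SNHG10, chr14:95534853-95534882, minus strand: cttatgccggagcctcatcctactgcctta
SNHG30, chr17:35568104-35568133, plus strand: tgtaagacctgagccgggcggagaagcaaa
GAS5, chr1:173869026-173869055, minus strand: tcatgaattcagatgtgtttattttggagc
SNHG32, chr6:31834906-31834935, plus strand: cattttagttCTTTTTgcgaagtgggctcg
ZFAS1, chr20:49278632-49278661, plus strand: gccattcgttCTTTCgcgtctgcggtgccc
Such a run stood in 16 of the 24 members with a window (66.7%), in 56 of 67 ribosomal protein genes (83.6%) and in 11691 of 34943 promoters (33.5%). Of the members shown, SNHG19, SNHG4, SNHG32 and ZFAS1 had it at the annotated start itself, as did SNHG5, which is not shown. SNHG3, SNHG20, SNHG10, SNHG30 and GAS5 held none in this window, and neither did SNHG1, SNHG21 and SNHG27, which are not shown. In SNHG14 and SNHG7, also not shown, the run began at -8 and -10 from the annotated start. A match is a description of the letters and not a mapped start site. SNHG6, SNHG9, SNHG15 and SNHG25 have no window here.

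Levels can be compared between members only per length. In the control libraries SNHG29 had the highest level per kilobase of its canonical transcript (191 CPM per kb), followed by SNHG32 (89.0), SNHG16 (88.2), SNHG17 (63.6) and GAS5 (48.6). Divided by the length of all annotated exons instead, SNHG32 (52.0 CPM per kb) came before SNHG6 (21.2), SNHG7 (18.4), SNHG19 (14.5) and SNHG1 (11.3). The order therefore depends on the gene model used for the length.

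After MTR4 knockdown, levels of DANCR and of 8 SNHG transcripts were higher and that of SNHG17 was lower in at least 1 of the fits, whereas GAS5 and ZFAS1 did not pass the test in either. No member passed both the test and a fold change of 2 with condition only. With condition only, DANCR was the 1 member that rose (3.7% of 27, against 1.48% of all tested genes) and no member fell (against 2.12% of all tested genes). With the alignment group in the fit, 9 members rose (33.3%, against 9.43% of all tested genes) and 1 fell (3.7%, against 10.8%). Every MTR4 KD library lay above every control library in 8 tested members (29.6%, against 12.1% of all tested genes) and below in 1 (3.7%, against 12.6%). At an unadjusted p under 0.05, 9 members were higher with condition only (33.3%, against 8.93% of all tested genes) and 1 was lower (3.7%, against 9.84%).

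The median log2 fold change of the 27 tested members was 0.15 with condition only and 0.08 with the alignment group, beside 0.006 and 0.005 for all tested genes. In both fits 19 members were fitted above 0 and 8 below. When every library was scaled to ACTB in place of TMM, the median of all tested genes itself moved to 0.19 and that of the members to 0.33, and 7 of the 8 members below 0 were then above it. The summed level of all members was 870 to 942 CPM in the control libraries and 975 to 983 CPM in the MTR4 KD libraries, so that these sums did not overlap. Abundant members weigh most in these sums, and how often sums of other genes separate in this way was not tested. Fewer cells and less RNA per cell cannot be told apart in bulk libraries.

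**Figure D1:**
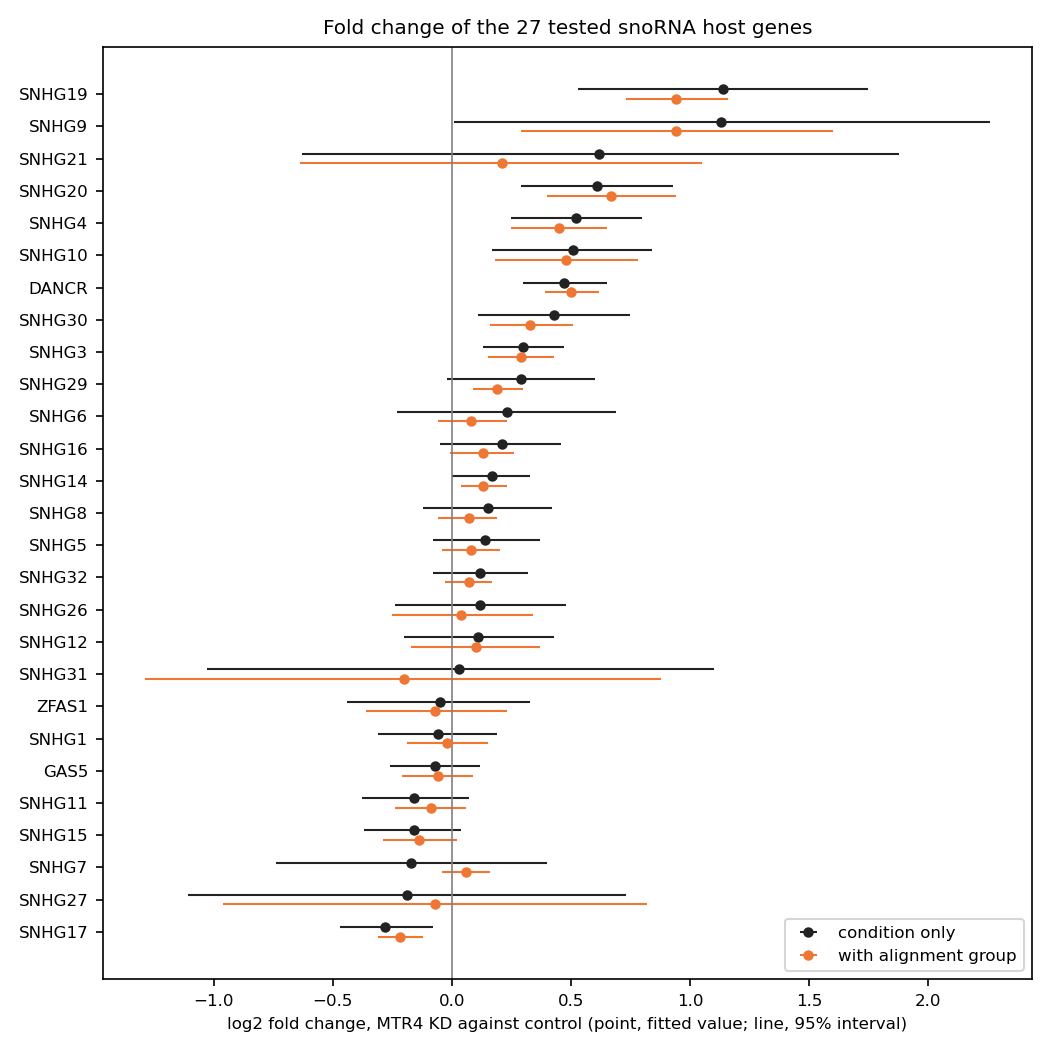
Fitted log2 fold change (x axis) of the 27 tested snoRNA host genes (y axis), with 95% intervals as lines, for the fit with condition only (black) and with the alignment group as a term (orange). SNHG19 (1.14 and 0.94) and SNHG9 (1.13 and 0.94) stand highest, SNHG17 lowest with condition only at -0.28, and the orange intervals are narrower for most members.

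DANCR, a long noncoding RNA described as a repressor of differentiation, hosts the H/ACA snoRNA SNORA26 on chromosome 4. It was at 55.0, 48.4 and 48.3 CPM in the control libraries and at 70.3, 67.3 and 73.1 CPM in the MTR4 KD libraries. The groups did not overlap, and the means were 50.5 ± 3.83 and 70.2 ± 2.89 CPM (SD, n = 3 each). DANCR rose by 39.0% (log2 fold change 0.47, SE 0.0735, adjusted p = 0.0173, edgeR quasi-likelihood test), and by 0.50 with the alignment group in the fit (adjusted p = 3.16e-05). The difference was 0.51 within each alignment group. The call with condition only was lost without control replicate 3 (adjusted p = 0.108), without MTR4 KD replicate 1 (0.102) or without MTR4 KD replicate 2 (0.0859), while the log2 fold change stayed between 0.44 and 0.54 with any 1 library left out.

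Among the H/ACA hosts, 10 members were tested, of which 1 rose with condition only (against 1.48% of all tested genes). The fit with the alignment group had 4 rises and 1 fall (against 9.43% and 10.8% of all tested genes). Besides DANCR these were SNHG3, SNHG4, SNHG9 and SNHG17. SNHG4 hosts SNORA74A and SNORA74D on chromosome 5. It was at 4.88, 5.97 and 5.29 CPM in the control libraries and at 8.23, 8.04 and 6.93 CPM in the MTR4 KD libraries. All 3 MTR4 KD libraries lay above the control libraries, with a log2 fold change of 0.52 with condition only (SE 0.118, edgeR adjusted p = 0.0645) and of 0.45 with the alignment group (adjusted p = 0.00431), and 0.45 within each alignment group. SNHG4 was called with condition only without control replicate 2 (edgeR adjusted p = 0.0453) or without MTR4 KD replicate 3 (0.0479).

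SNHG3 hosts SNORA73A and SNORA73B, snoRNAs that take part in the processing of ribosomal RNA precursors. It was at 17.2, 18.3 and 17.6 CPM in the control libraries and at 22.7, 20.9 and 21.9 CPM in the MTR4 KD libraries. The groups were apart and the spread within each was small, with SDs of 0.563 and 0.882 CPM (n = 3 each). The log2 fold change was 0.30 (SE 0.0721, edgeR adjusted p = 0.076) with condition only and 0.29 (adjusted p = 0.00596) with the alignment group.

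SNHG9, which hosts SNORA78, starts 54 bases from RPS2 on the other strand of chromosome 16. It was at 0.438, 1.12 and 0.282 CPM in the control libraries and at 1.61, 1.38 and 1.09 CPM in the MTR4 KD libraries. The groups overlapped, since control replicate 2 lay above MTR4 KD replicate 3, and the counts were only 17 to 99 per library. The log2 fold change was 1.13 (SE 0.479, edgeR adjusted p = 0.263) with condition only and 0.94 (adjusted p = 0.043) with the alignment group. It was 1.62 among the libraries with more non-unique reads and 0.41 among those with fewer. Without control replicate 2 it moved to 1.91 and SNHG9 was called with condition only (edgeR adjusted p = 0.0263).

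SNHG17 was the only member that fell in either fit. It hosts SNORA71A to SNORA71D and lies on chromosome 20 next to SNHG11, the host of SNORA71E and SNORA60. SNHG17 was at 80.8, 73.7 and 81.8 CPM in the control libraries and at 60.2, 63.6 and 71.4 CPM in the MTR4 KD libraries. Every MTR4 KD library lay below every control library. Its log2 fold change was -0.28 (SE 0.0825, edgeR adjusted p = 0.133) with condition only and -0.22 (adjusted p = 0.00364) with the alignment group, but -0.06 (adjusted p = 0.489) with the alignment group after scaling to ACTB. SNHG11 had a log2 fold change of -0.16 (95% interval -0.38 to 0.07, edgeR adjusted p = 0.442), which was not called.

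**Figure D2:**
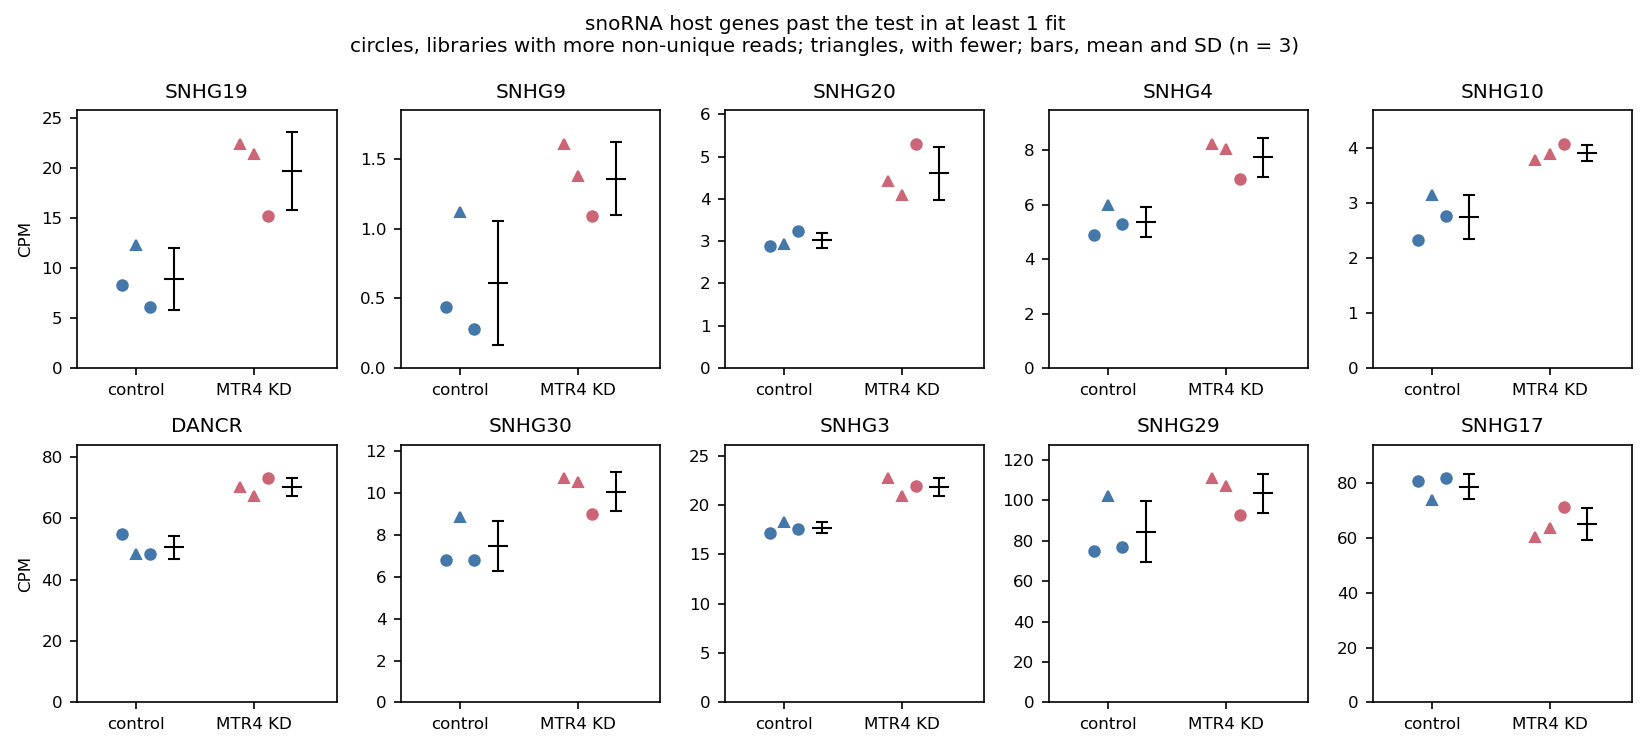
CPM (y axis, from 0, scaled separately) of the 10 snoRNA host genes past the test in at least 1 fit, by condition (x axis). Points are libraries, circles those with more and triangles those with fewer non-unique reads, and bars give the mean and SD (n = 3). Control and MTR4 KD are apart in 8 of the 10 genes, and overlap in SNHG9 and SNHG29, where control replicate 2 reaches into the MTR4 KD range.

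Among the box C/D hosts, 11 members were tested, of which none was called with condition only. SNHG19, SNHG29 and SNHG30, 3 of the 11, rose with the alignment group in the fit (against 9.43% of all tested genes). SNHG19 hosts SNORD60 on chromosome 16, and its fitted change and that of SNHG9 were the largest of the members in both fits. It was at 8.34, 12.3 and 6.15 CPM in the control libraries and at 22.4, 21.4 and 15.2 CPM in the MTR4 KD libraries. All MTR4 KD libraries lay above all control libraries, and in both conditions the libraries with fewer non-unique reads had the higher levels. The means were 8.91 ± 3.09 and 19.6 ± 3.91 CPM (SD, n = 3 each), a 2.2-fold difference (log2 fold change 1.14, SE 0.26, edgeR adjusted p = 0.0665) with condition only. With the alignment group the fold was 1.92 (log2 fold change 0.94, SE 0.101, adjusted p = 2.81e-05). The log2 difference was 1.08 among libraries with more and 0.84 among those with fewer non-unique reads. SNHG19 was called with condition only once control replicate 2 (adjusted p = 0.0151) or MTR4 KD replicate 3 (0.048) was left out.

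SNHG30, the host of SNORD7, is on chromosome 17. It was at 6.81, 8.84 and 6.78 CPM in the control libraries and at 10.7, 10.5 and 8.99 CPM in the MTR4 KD libraries. The groups were apart by a small margin between control replicate 2 and MTR4 KD replicate 3. The log2 fold change was 0.43 (SE 0.135, edgeR adjusted p = 0.148) with condition only and 0.33 (adjusted p = 0.012) with the alignment group. Without control replicate 2 it was 0.56, and SNHG30 was called with condition only (edgeR adjusted p = 0.0438).

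SNHG29 hosts SNORD49A, SNORD49B and SNORD65 and was among the most abundant members. It was at 74.9, 102 and 76.8 CPM in the control libraries and at 111, 107 and 92.6 CPM in the MTR4 KD libraries. Control replicate 2 lay above MTR4 KD replicate 3, so the groups overlapped. The log2 fold change was 0.29 (SE 0.132, edgeR adjusted p = 0.291) with condition only and 0.19 (adjusted p = 0.0129) with the alignment group. It was 0.44 without control replicate 2, where SNHG29 was called with condition only (edgeR adjusted p = 0.0433).

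ZFAS1 and SNHG14 are box C/D hosts that were called in neither fit. ZFAS1, host of SNORD12, SNORD12B and SNORD12C, was at 8.35, 10.2 and 6.93 CPM in the control libraries and at 7.48, 7.65 and 9.48 CPM in the MTR4 KD libraries. The ranges overlapped, and the log2 fold change was -0.05 (95% interval -0.44 to 0.33, edgeR adjusted p = 0.897). The difference was 0.32 among libraries with more and -0.43 among those with fewer non-unique reads. SNHG14 was at 141, 148 and 130 CPM in the control libraries and at 163, 157 and 150 CPM in the MTR4 KD libraries. Its groups were apart, with a log2 fold change of 0.17 (95% interval 0.00 to 0.33, edgeR adjusted p = 0.257) and of 0.13 with the alignment group (adjusted p = 0.0516).

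SNHG32, host of SNORD48 and SNORD52, was at 85.3, 104 and 91.8 CPM in the control libraries and at 103, 105 and 97.8 CPM in the MTR4 KD libraries. The ranges overlapped, and the log2 fold change was 0.12 (95% interval -0.08 to 0.32, edgeR adjusted p = 0.506). GAS5 and SNHG12 carry snoRNAs of both boxes. GAS5, a host named for its accumulation in growth-arrested cells, was at 35.6, 39.7 and 36.8 CPM in the control libraries and at 33.2, 34.7 and 38.8 CPM in the MTR4 KD libraries. These ranges overlapped too, and the log2 fold change was -0.07 (95% interval -0.26 to 0.12, edgeR adjusted p = 0.705) and -0.06 with the alignment group (95% interval -0.21 to 0.09, adjusted p = 0.58).

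The hosts of small Cajal body RNAs were SNHG10 (SCARNA13), SNHG20 (SCARNA16) and SNHG21 (SCARNA15). The first pair rose with the alignment group in the fit (against 9.43% of all tested genes). SNHG20 was at 2.89, 2.94 and 3.23 CPM in the control libraries and at 4.43, 4.09 and 5.3 CPM in the MTR4 KD libraries. The groups were apart, and the log2 fold change was 0.61 (SE 0.137, edgeR adjusted p = 0.0631) with condition only and 0.67 (adjusted p = 0.00233) with the alignment group. SNHG10 was at 2.34, 3.15 and 2.77 CPM in the control libraries and at 3.78, 3.89 and 4.08 CPM in the MTR4 KD libraries. Its groups were apart as well, with a log2 fold change of 0.51 (SE 0.143, edgeR adjusted p = 0.116) and of 0.48 (adjusted p = 0.0277) with the alignment group. SNHG21 had 10 to 44 counts per library and a log2 fold change of 0.62 whose interval ran from -0.63 to 1.88.

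SNHG7, host of SNORA17A and SNORA17B, followed the alignment group and not the condition. It was at 105, 63.9 and 101 CPM in the control libraries and at 70.1, 64.1 and 106 CPM in the MTR4 KD libraries. The libraries with more non-unique reads lay between 101 and 106 CPM and the others between 63.9 and 70.1 CPM. The log2 fold change was -0.17 (95% interval -0.74 to 0.40, edgeR adjusted p = 0.767) with condition only and 0.06 (adjusted p = 0.437) with the alignment group. In the lifted GENCODE annotation, 30.3% of the exon bases of SNHG7 also belonged to another gene on either strand. Above 30% lay 5 members, which were SNHG7, SNHG21 (72.9%), SNHG6 (58.9%), ZFAS1 (38.6%) and SNHG8 (37.6%). Whether the counting used strand is not given in the sources used here, so reads of these overlapping genes may not be separable. Among the 10 members called in a fit the share was highest at SNHG4 (16.6%) and was 13.1% at DANCR.

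Of the 27 tested members, 17 were called in neither fit. Besides those described above, these were SNHG1, SNHG5, SNHG6, SNHG8, SNHG12, SNHG15, SNHG16, SNHG26, SNHG27 and SNHG31, with log2 fold changes between -0.19 and 0.23 with condition only. SNHG1 (-0.06, 95% interval -0.31 to 0.19), SNHG15 (-0.16, -0.37 to 0.04), SNHG5 (0.14, -0.08 to 0.37), SNHG16 (0.21, -0.05 to 0.46) and SNHG8 (0.15, -0.12 to 0.42) had the narrower intervals. SNHG27, in whose bounds RefSeq places no snoRNA and the lifted GENCODE annotation places 1 SNORA70 gene without a count, had 19 to 44 counts per library and an interval from -1.11 to 0.73, and SNHG31 had 8 to 25 counts and an interval from -1.03 to 1.10, so that a change of 2-fold was not excluded for either. SNHG6 was at 42.4 and 47.7 CPM in the control libraries with more non-unique reads, and at 70.4 CPM in the other. Its MTR4 KD libraries were at 65.9, 69.5 and 52.9 CPM, of which the last has more non-unique reads. With the alignment groups taken apart, 14 tested members were higher in MTR4 KD in both, 3 were lower in both and 10 were neither. These 10 had opposite signs, except SNHG32, whose rounded difference was 0.0 among the libraries with fewer non-unique reads. The same direction in both was thus found for 63.0% of the members, from rounded differences, and for 67.9% of all tested genes, from unrounded ones. All 10 members called with the alignment group kept 1 direction in both alignment groups, which that fit draws on.

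**Figure D3:**
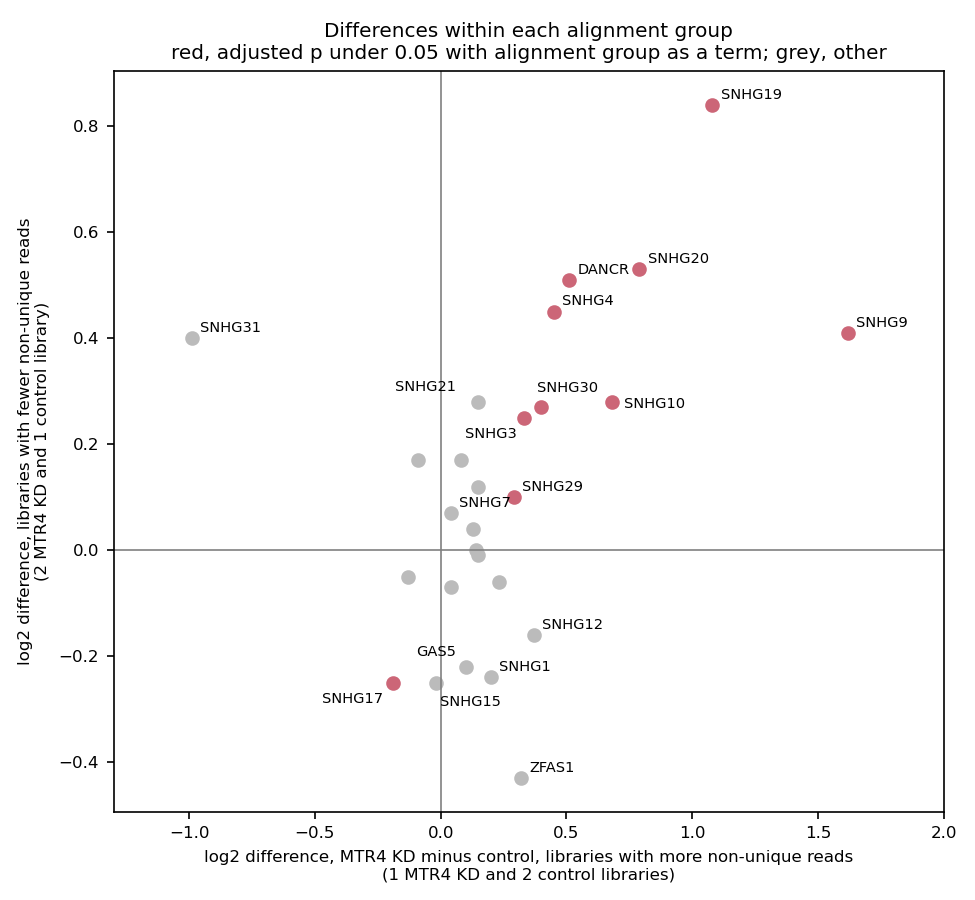
Log2 difference of MTR4 KD from control among libraries with more non-unique reads (x axis) and among those with fewer (y axis), 1 point per tested snoRNA host gene. The 9 red points in the upper right and SNHG17 in the lower left passed the test with the alignment group as a term, and ZFAS1, SNHG1, GAS5 and SNHG12 have opposite signs on the axes.

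Across the 27 tested members, Spearman's rho between the log2 fold change and the number of exons of the canonical transcript was -0.58 with condition only and -0.49 with the alignment group. It was -0.35 and -0.24 for the number of snoRNAs, -0.27 and -0.13 for the mean control level, -0.24 and -0.17 for exon length, and 0.13 and 0.27 for GC content. These 5 correlations describe genes that were measured in the same 6 libraries.

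The other genes of snoRNA production and of NMD came from lists of genes by function. Their calls are to be read beside those of all tested genes. With the alignment group 9.43% of these rose and 10.8% fell. With the alignment group relative to ACTB, 5414 of 18075 tested genes rose. Protein-coding snoRNA hosts numbered 34, with a median log2 fold change of -0.03 with condition only and -0.05 with the alignment group. None was called with condition only, and 2 rose and 4 fell with the alignment group, among them PRPF39 (0.34) and CCAR1 (0.18) upward and SNRPB (-0.22), SF3B3 (-0.21) and RACK1 (-0.15) downward, but 7 rose and none fell with the alignment group relative to ACTB. Of 19 core and assembly proteins of snoRNPs, the particles that snoRNAs form with protein, none was called with condition only and 7 fell with the alignment group, whereas 5 rose and 1 fell with it relative to ACTB, a scaling that moved the median of all tested genes to 0.16. PIH1D1 (-0.42), RUVBL2 (-0.28) and RUVBL1 (-0.27), which take part in snoRNP assembly, were the largest falls with the alignment group. None of 84 ribosomal protein genes was called with condition only, and 2 fell with the alignment group, RPL4 (-0.17) and RPL7A (-0.14), whereas 22 rose and none fell with it relative to ACTB.

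None of 23 NMD factors was called with condition only, and 3 rose and 2 fell with the alignment group, against 9 and 0 with it relative to ACTB. Of 22 transcripts known to be sensitive to NMD, 2 fell with condition only, UPP1 (log2 fold change -0.53, edgeR adjusted p = 0.0153) and GADD45A (-0.55, adjusted p = 0.0466), a stress-induced gene, and none rose. None of this list was called relative to ACTB, or without control replicate 1, control replicate 3, MTR4 KD replicate 1 or MTR4 KD replicate 2, and without control replicate 2 the list had 2 rises and 2 falls. With the alignment group 5 rose, among them SRSF6, RBM39 and DDIT3, and 5 fell, against 9 and 3 with it relative to ACTB. Of all tested genes, 9.43% rose and 10.8% fell with the alignment group, and 5414 of 18075 rose with it relative to ACTB. The medians of the NMD factors and of the NMD-sensitive transcripts were 0.07 and 0.02 with condition only, beside 0.15 for the snoRNA host genes. Both were -0.01 with the alignment group, beside 0.08 for the snoRNA host genes. No test compared these lists with each other.

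Protein-coding genes that start within 2000 bases of a member on the other strand were 7, and none was called with condition only. TRAF7, whose start is 293 bases from that of SNHG19, had a log2 fold change of 0.03 (edgeR adjusted p = 0.929) and of 0.14 (adjusted p = 0.0407) with the alignment group, against 1.14 and 0.94 for SNHG19. RPS2, the neighbour of SNHG9, was at -0.21 (adjusted p = 0.695) and 0.01 (adjusted p = 0.896) in the same edgeR fits. GLRX5, the neighbour of SNHG10, was at 0.04 (edgeR adjusted p = 0.79), ZNFX1, the neighbour of ZFAS1, at 0.10 (adjusted p = 0.606), and ZBTB37, the neighbour of GAS5, at 0.29 (adjusted p = 0.302). SLC3A2, the neighbour of SNHG1, was at 0.19 and rose with the alignment group (edgeR adjusted p = 0.00541), and BARD1, the neighbour of SNHG31, was at -0.17 and fell with it (-0.24, adjusted p = 0.0277). With the alignment group relative to ACTB 6 of the 7 neighbours rose (against 5414 of 18075 tested genes) and none fell. Differences between a member and its neighbour were not tested.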

How the data were processed

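RNA-seq of 3 control and 3 MTR4 KD samples of PLC/PRF/5 cells was read from 1 table per sample. The authors deposited raw counts of reads per Ensembl gene, with no normalization. The submitters' processing notes name HISAT2 2.1.0, HTSeq, DESeq2 and GRCh38, and the strand setting is not given in the sources used here. Groups and replicate numbers came from the sample labels. The HTSeq classes that name no gene were left out of library sizes and tests. Of all entries, 14.8% to 37.5% were non-unique, 5.89% to 8.29% ambiguous, 2.51% to 3.10% without a feature and 1.62% to 5.73% of low quality.

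Of 60675 genes, 56959 were found in a GRCh37 lift of the GENCODE annotation, the source of symbols. It also gave lengths, exon numbers, GC content, shared exon bases, snoRNA genes matched by identifier and distances to promoter neighbours. The other 3716 counted genes were not in it, so the gene set used for counting differed from it. Positions of members, the snoRNAs they hold (either strand) and start windows came from RefSeq on GRCh38. Genes were kept by filterByExpr of edgeR 4.0.16 (R 4.3.3) with a minimum of 10 counts, TMM scaled the libraries, and condition was the single term of the quasi-likelihood test. A gene was called at a Benjamini-Hochberg adjusted p under 0.05 over 18075 tested genes. CPM values are TMM-scaled, and log2 differences within an alignment group used a prior count of 0.5. The alignment group was set by a share of non-unique reads above 30%, the feature that also separated libraries of 1 condition. The biological coefficient of variation was 0.175 with condition only and 0.0573 with the alignment group. In simulated counts on 18075 genes the fit with condition only recovered 28 of 200 genes changed 1.5-fold (14.0%) and 161 of 200 changed 2-fold (80.5%). The changed genes were drawn above a minimum mean count, so recovery at low counts, such as those of SNHG21, SNHG27 and SNHG31, is not covered. The simulation took its spread from the fit with condition only and held no alignment groups. It shows that this fit often misses changes of 1.5-fold, and it does not cover the fit with the alignment group.

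Members, lists and tests were chosen with earlier results of these data known. Named genes are MTREX and every member, with values per library for members called in either fit, GAS5, ZFAS1, DANCR and the 5 members with the highest mean CPM. From the other lists at most 3 called genes per direction are named, along with promoter neighbours of the members. SNHG6, SNHG11 and the neighbours' values beyond this rule, and the starts of SNHG32 and ZFAS1, were chosen after values were seen. The alternatives were other scalings (DESeq2 1.42.0 size factors, total counts, ACTB), filters, tests (DESeq2, limma-voom with limma 3.58.1), offsets for GC content, the replicate number as a block, thinning, thresholds and leaving out each library. After seeing the data, the alignment group was also combined with the GC offsets and with scaling to ACTB. Tables and plots were made in Python 3.11.15 (pandas 2.3.3, matplotlib 3.10.9).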

Additional observations from a re-analysis of the deposited data

How the results depend on the processing

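DANCR rose in every alternative and was called in all but 3 of those that left out a library. The number of members that rose differed between fits. Against 1 with condition only (1.48% of all tested genes rose), it was 2 with no filter (0.713%), 5 relative to ACTB (3.41%), 5 with GC offsets (2.71%), 6 with DESeq2's Wald test (3.28%), 9 with the alignment group (9.43%), 8 with the alignment group and GC offsets (9.73%), and 16 with the alignment group relative to ACTB (5414 of 18075 tested genes). It was 5 at an adjusted p under 0.1 (2.70%) and 0 at an adjusted p under 0.05 with a fold change over 2 (0.321%). When each library was left out in turn it was 0 to 6. It was 0 without control replicate 3 (0.348%), MTR4 KD replicate 1 (0.331%) or MTR4 KD replicate 2 (0.279%), 1 without control replicate 1 (0.348%), 3 without MTR4 KD replicate 3 (1.46%) and 6 without control replicate 2 (1.62%). The count that fell was 1 with the alignment group, with or without GC offsets, against 0 with condition only. Relative to ACTB the median of the members was 0.33 against 0.15.

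With the replicate number as a block, 3 members rose (1.89% of all tested genes), and 7 with the block and GC offsets (3.93%). Deviations of same-numbered samples correlated at -0.215, 0.301 and 0.326, and the pairs numbered 2 and 3 each lie within 1 alignment group. Pairs with different numbers within 1 alignment group correlated at 0.313 and 0.332. These correlations therefore cannot tell whether the numbers pair the samples.

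The other scalings, the filter of 1 CPM in 3 libraries, limma-voom and thinning gave 1 rise and no fall. MTREX was at -0.73 among the libraries with more and at -0.91 among those with fewer non-unique reads, and at -0.58 relative to ACTB. Of 539 values of single genes under alternatives, 443 kept direction and side of the threshold, 60 passed it newly, 3 lost it and 33 changed sign, all in 9 members called in neither fit. Relative to ACTB, SNHG1 was at 0.13, SNHG7 at 0.03, SNHG11 at 0.04, SNHG15 at 0.02, SNHG27 at 0.01, and GAS5 and ZFAS1 at 0.12. With the alignment group as well, they were at 0.14, 0.21, 0.07, 0.02, 0.09, 0.10 and 0.09. SNHG7 was at 0.06 with the alignment group and 0.00 with GC offsets added. SNHG31 was at -0.09 with limma-voom, -0.04 with the block, -0.20 with the alignment group, -0.01 with GC offsets, -0.07 with these and the block, -0.20 with these and the alignment group, -0.06 with the alignment group relative to ACTB, and -0.13 after thinning. With each library left out in turn, SNHG31 ran from -0.38 to 0.36, ZFAS1 from -0.18 to 0.10, SNHG1 from -0.18 to 0.01, SNHG26 from -0.01 to 0.23 and SNHG27 from -0.43 to 0.24. Calls among the 22 NMD-sensitive transcripts ran from 0 to 12 over the alternatives, against 2. The cause was not tested. Depth limits SNHG21, SNHG25, SNHG27 and SNHG31 most.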
